A study of Mus musculus with 24 samples.

Results

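Total RNA of leptotene spermatocytes was compared with total RNA of spermatogonia from mouse testis. The comparison took the 4 total RNA libraries labelled leptotene spermatocytes and the 3 labelled spermatogonia, 7 of the 24 libraries of the series. All came from wild-type NMRI mice treated with WIN18,446, an inhibitor of retinoic acid synthesis, and then with retinoic acid, which sets the germ cells of a testis to one common wave of development. Each mouse received 2 mg of the RNA label 5-ethynyl uridine at 24 days after birth, was killed 3 hours later, and its cells were sorted by DNA content. No untreated or unlabelled mouse was analysed here, so both stages carry the synchronisation and the label. Spermatogonia libraries 1 and 2 were labelled as animal IND3 and library 3 as IND1. Leptotene libraries 1 and 2 were labelled IND1, library 3 IND4 and library 4 IND3. Animals were therefore the replicates, 2 for spermatogonia and 3 for leptotene, with 2 animals in both stages, and p values measure the spread between these animals. Values are FPKM, fragment counts scaled for gene length and sequencing depth, as deposited. Changes are differences of log2(FPKM + 1), leptotene minus spermatogonia, which understate the change of genes at low levels, and are given with their standard error after the sign.

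Spermatogonia are the mitotic germ cells of the testis and include the stem cells that sustain sperm production. Retinoic acid drives them to differentiate and, through STRA8 and its partner MEIOSIN, to enter meiosis. In leptotene, the first stage of meiotic prophase, chromosomes condense along protein axes held by meiotic cohesin, SPO11 cuts the DNA, and recombinases, among them the meiosis-specific DMC1, load on the cut ends. Synapsis, crossover formation and the silencing of the sex chromosomes follow in zygotene and pachytene. In bulk RNA, fewer cells of a type and less RNA per cell cannot be told apart.

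The 250 bases before the start site are shown for 4 recombination genes whose levels are described here, from the RefSeq promoter table on GRCm38.p6. Capitals mark matches, on either strand, to the motif CNCCTCAG, bound by mouse STRA8, or to TTCCCGCC, bound by E2F factors. Hfm1 lies at chr5:106925891-106926140 (minus strand), Msh5 at chr17:35046623-35046872 (minus strand), Rad51ap2 at chr12:11455805-11456054 (plus strand) and Dmc1 at chr15:79605110-79605359 (minus strand).
Hfm1: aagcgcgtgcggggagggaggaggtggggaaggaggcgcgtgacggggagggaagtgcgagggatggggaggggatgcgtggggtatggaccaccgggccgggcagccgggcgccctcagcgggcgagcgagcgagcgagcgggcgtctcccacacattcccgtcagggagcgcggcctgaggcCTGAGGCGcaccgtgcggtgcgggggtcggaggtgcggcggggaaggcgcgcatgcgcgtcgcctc
Msh5: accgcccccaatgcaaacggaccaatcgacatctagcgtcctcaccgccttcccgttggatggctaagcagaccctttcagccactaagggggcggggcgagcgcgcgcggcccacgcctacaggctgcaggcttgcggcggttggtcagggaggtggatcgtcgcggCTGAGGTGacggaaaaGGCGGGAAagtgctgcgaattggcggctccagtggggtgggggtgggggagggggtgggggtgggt
Rad51ap2: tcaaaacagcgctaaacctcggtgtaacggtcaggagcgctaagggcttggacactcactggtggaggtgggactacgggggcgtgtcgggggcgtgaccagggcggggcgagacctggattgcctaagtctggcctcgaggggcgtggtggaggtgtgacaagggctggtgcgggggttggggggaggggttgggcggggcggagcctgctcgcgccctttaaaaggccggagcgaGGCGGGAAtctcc
Dmc1: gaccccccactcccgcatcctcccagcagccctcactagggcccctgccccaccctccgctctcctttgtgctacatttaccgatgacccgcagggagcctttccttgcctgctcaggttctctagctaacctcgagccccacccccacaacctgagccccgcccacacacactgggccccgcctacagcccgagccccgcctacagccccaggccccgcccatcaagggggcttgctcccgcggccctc
Hfm1 held 1 match to CNCCTCAG, and Msh5 held 1 match to each motif. Rad51ap2 held 1 match to TTCCCGCC, and neither set of letters was in the Dmc1 window. Over all 32851 RefSeq promoter windows of this length, 6.42% held CNCCTCAG and 1.86% held TTCCCGCC. Of the 83 genes in the lists of double-strand break machinery, strand exchange, crossover factors and synaptonemal complex, 62 had a window, and 8 of these held CNCCTCAG and 7 held TTCCCGCC. A gene was counted if any of its windows held the motif, whereas the shares over all promoters count single windows. The counts and the shares are therefore of unlike units, and no enrichment was tested. These 4 genes were chosen after their values were seen, and a match is a description of letters, not of binding.

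The 4 libraries labelled leptotene were not alike. Across genes, leptotene library 2 correlated with the pachytene libraries at a Spearman rho of 0.888 to 0.919 and with the other leptotene libraries at 0.601 to 0.642. Leptotene libraries 1 and 4, from different animals, correlated with each other at 0.902 and with the preleptotene library, from a further animal, at 0.878 and 0.895. Leptotene library 3 correlated with the spermatogonia libraries at 0.657 to 0.809, and library 1 did so at 0.517 to 0.669. With leptotene libraries 1 and 4 library 3 correlated at 0.799 and 0.805, and with the preleptotene library at 0.813. Results are therefore given with all 7 libraries and, where they differ, without leptotene library 2 (6 libraries) and with the animal as a block. Leptotene library 3 does not enter the blocked difference, because its animal has no spermatogonia library. Libraries 2 and 3 were both left out in a further alternative, and that choice was made with these profiles known. Implied depths were 7.15M to 13.25M fragments (M, 1e6), spike-in RNA took 2.96% to 6.02% of summed FPKM in spermatogonia and 3.37% to 8.19% in leptotene, and 12666 to 14861 genes reached 1 FPKM in each of the 7 libraries.

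In total RNA many more genes fell from spermatogonia to leptotene than rose. Of 16774 genes tested, 25 rose (0.149%) and 1156 fell (6.89%) at a limma Benjamini-Hochberg adjusted p under 0.05, and the median change over all genes was -0.15. Without leptotene library 2, 57 of 16371 genes rose (0.348%) and 1338 fell (8.17%), with a median of -0.19; 20 of the 25 rises and 1114 of the 1156 falls were called in both. With the animal as a block, which leaves 1 residual degree of freedom, 390 rose (2.33%) and 1720 fell (10.3%), and without leptotene library 2 the block gave 592 (3.62%) and 1551 (9.47%). The counts depended on leptotene libraries 1 and 4. Without library 1, and likewise without library 4, no gene passed in limma, and at an unadjusted p under 0.05 there were then 151 higher and 2406 lower genes without library 1, and 267 and 2227 without library 4. Without spermatogonia library 3, 6 rose and 1518 fell, and 1 of the 25 rises was still called. That fit has 1 spermatogonia animal, IND3, which is assumed to vary as the leptotene animals do. Without leptotene library 3, 186 rose and 1274 fell. When each library was scaled to its median gene, which moved the median change to 0.14, 32 genes rose and 476 fell. Of the 25 risen genes 10 (40.0%) overlapped between the libraries of the stages, and of the 1156 fallen genes 15 (1.3%) did, since the test used animal means. Taf9, a TFIID subunit gene with the largest rise, measured 0.40, 9.37 and 0.395 FPKM in spermatogonia and 0.452, 269, 36.4 and 55.5 FPKM in leptotene, so leptotene libraries 1 and 2, both of IND1, were the lowest and the highest of their stage. Its change of 3.91 ± 0.58 (limma adjusted p = 0.0148) was 2.66 without library 2 and missed the threshold (adjusted p = 0.31). Blcap and Lsm4, the next risen genes of this kind, measured 15.5 and 14.2 FPKM in spermatogonia library 2 and below 1 FPKM in libraries 1 and 3. These 3 were chosen after their values were seen. Protein-coding genes made up 92.8% of the fallen genes with coordinates and 74.4% of those tested, and the X chromosome held 5.99% of the fallen and 3.89% of those tested.

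**Figure D1:**
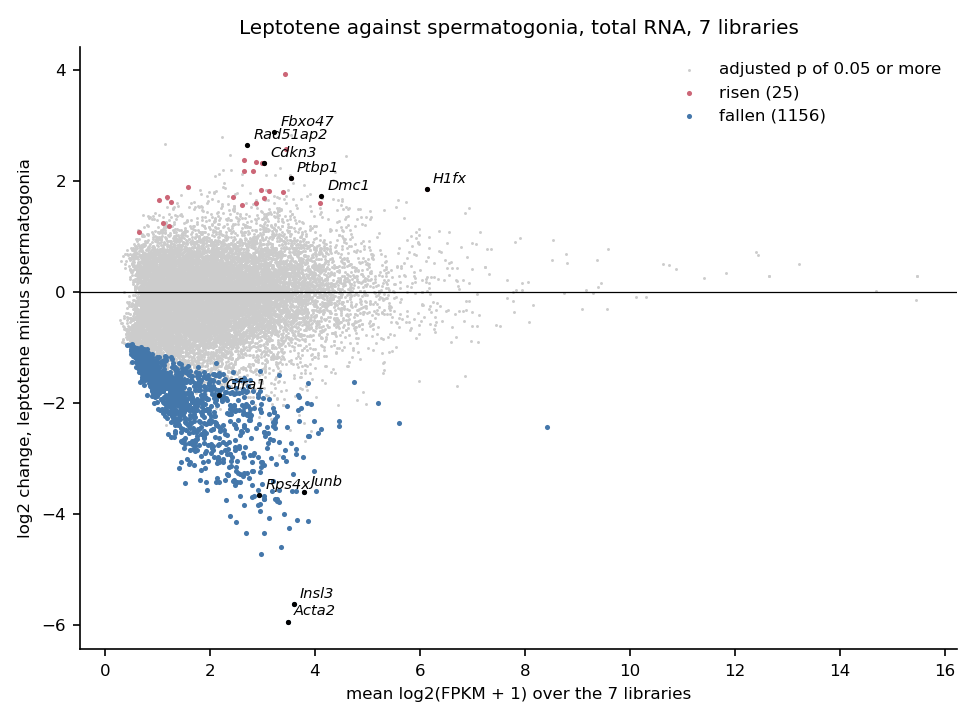
Change in total RNA (log2(FPKM + 1), leptotene minus spermatogonia) against the mean level of each of 16774 genes over the 7 libraries. Red points are the 25 risen and blue points the 1156 fallen genes, black points are named genes, and the genes with changes below -5 are Acta2 and Insl3.

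The 3 marker genes of the comparison were read first. Gfra1, the GDNF co-receptor of undifferentiated spermatogonia (chr19:58235604-58455909, minus strand, mm10), measured 9.24, 9.75 and 7.39 FPKM in the spermatogonia libraries and 1.45, 1.13, 2.02 and 1.51 FPKM in leptotene libraries 1 to 4. The groups did not overlap and Gfra1 fell by 1.86 ± 0.33 (limma adjusted p = 0.0197). Fbxo47, whose F-box protein mice need for synapsis (chr11:97853826-97884154, minus strand), measured 1.27, 1.95 and 2.56 FPKM in spermatogonia and 49.4, 10.1, 6.63 and 59.9 FPKM in leptotene. All 4 leptotene libraries lay above all spermatogonia libraries, with libraries 1 and 4 far above libraries 2 and 3. The change of 2.87 ± 0.76 missed the threshold in limma with 7 libraries (adjusted p = 0.0646) and with 6 (3.24 ± 0.88, adjusted p = 0.0777), and passed with the animal as a block (3.65 ± 0.52, adjusted p = 0.0019). Dmc1, the meiosis-specific recombinase (chr15:79561497-79605109, minus strand), measured 5.91, 6.49 and 11.6 FPKM in spermatogonia and 57.4, 9.04, 19.9 and 60.3 FPKM in leptotene. Library 2 lay inside the range of spermatogonia and the other 3 leptotene libraries above it. Dmc1 changed by 1.72 ± 0.54 with 7 libraries (limma adjusted p = 0.113), by 2.14 ± 0.54 without library 2 (adjusted p = 0.0637) and by 2.02 ± 0.58 with the block (adjusted p = 0.0449). Levels of Gfra1 thus separated the labelled stages in all 7 libraries, and those of Dmc1 did so in all but leptotene library 2. This separation from spermatogonia does not by itself show that a library is leptotene.

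Of the genes that rose, 9 met the naming rule with 7 libraries, and none of them encodes a meiosis-specific recombination or axis protein. Rnf44, a RING finger gene, measured 6.62, 3.46 and 1.45 FPKM in spermatogonia and 33.4, 9.68, 16.7 and 32.2 FPKM in leptotene, and rose by 2.57 ± 0.49 (limma adjusted p = 0.0225). Cdkn3, a phosphatase of cyclin-dependent kinases, measured 1.77, 1.95 and 2.64 FPKM against 20.7, 16.5, 8.04 and 22.5 FPKM and rose by 2.32 ± 0.47 (adjusted p = 0.0269). Ptbp1, a splicing repressor, measured 2.85, 5.79 and 4.09 FPKM against 19.5, 24.5, 21 and 17.5 FPKM and rose by 2.04 ± 0.34 (adjusted p = 0.0171). Its 4 leptotene libraries were the most alike of these 3 genes. H1fx, a linker histone gene, measured 29.1, 26.2 and 38.2 FPKM against 180, 119, 78.9 and 148 FPKM and rose by 1.85 ± 0.43 (adjusted p = 0.0423). Rcc1, the exchange factor that loads RAN with GTP on chromatin, rose by 1.70 ± 0.33 (adjusted p = 0.0238) from 1.15 to 2.56 FPKM in spermatogonia to 5.47 to 14.8 FPKM in leptotene. Immt, which organises mitochondrial cristae, rose by 1.56 ± 0.35 (adjusted p = 0.0383) from 2.01 to 2.56 FPKM to 6.23 to 11.1 FPKM. In each of these 6 genes every leptotene library lay above every spermatogonia library, and the preleptotene library, at 31.5, 16.8, 17.4, 141, 6.45 and 8.92 FPKM in that order, lay above spermatogonia as well.

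The other 3 risen genes named by the rule had a different pattern in single libraries. Ptpa, an activator of the phosphatase PP2A, measured 1.84, 1.64 and 1.89 FPKM in spermatogonia and 10.8, 4.85, 17.8 and 12.1 FPKM in leptotene and rose by 2.17 ± 0.42 (limma adjusted p = 0.0231), while its preleptotene level was 1.36 FPKM. Cab39, a scaffold of the kinase LKB1, measured 13.9 FPKM in spermatogonia library 1, 2.66 and 2.10 FPKM in libraries 2 and 3, 13.9 to 20.2 FPKM in leptotene and 1.65 FPKM in preleptotene. Its rise of 1.79 ± 0.44 (adjusted p = 0.049) rests on animal means, since spermatogonia library 1 and leptotene library 1 had nearly the same level. Dgcr6, named for its place in the DiGeorge region, measured 0.232 to 0.370 FPKM in spermatogonia, 2.01, 2.97 and 2.48 FPKM in leptotene libraries 1, 3 and 4 and 22.0 FPKM in library 2, with a rise of 1.88 ± 0.42 (adjusted p = 0.0374). Without library 2 it rose by 1.40 ± 0.23 (adjusted p = 0.022).

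Leaving out leptotene library 2 brought 6 further genes under the naming rule, and 2 of these had already passed with 7 libraries. Tex19.1, a germ cell gene that restrains retrotransposons, measured 3.08, 2.96 and 3.93 FPKM in spermatogonia and 39.0, 13.9 and 20.2 FPKM in leptotene libraries 1, 3 and 4, and rose by 2.39 ± 0.44 (limma adjusted p = 0.0274). Its level was 2.77 FPKM in leptotene library 2 and 2.89 FPKM in preleptotene, both at or below spermatogonia. Esyt2, an extended synaptotagmin, rose by 2.03 ± 0.36 (adjusted p = 0.0247) although spermatogonia library 1, at 11.0 FPKM, was close to leptotene library 3, at 12 FPKM. Hist1h4f, a replication-dependent H4 gene, measured 48.5, 103 and 71.1 FPKM in spermatogonia and 293, 221 and 280 FPKM in leptotene libraries 1, 3 and 4, and rose by 1.87 ± 0.24 (adjusted p = 0.0154). Hist1h1e, a linker histone gene, rose by 1.88 ± 0.37 (adjusted p = 0.0315). In leptotene library 2 these 2 histone genes, at 61.9 and 9.13 FPKM, lay inside the range of spermatogonia, and they missed the threshold with 7 libraries (adjusted p = 0.0784 and 0.156). Histone genes are near-identical copies, so how reads were shared among them is uncertain. Ubp1, a transcription factor gene, and Csrp1, a LIM-domain gene, rose by 1.86 ± 0.34 (adjusted p = 0.0267) and 1.75 ± 0.32 (adjusted p = 0.0278).

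Many genes of meiotic recombination and chromosome axes had higher levels in single leptotene libraries than in spermatogonia, yet none of them passed in the fit of 7 libraries. Lists of double-strand break machinery, strand exchange, crossover factors, synaptonemal complex and axis, cohesin, and telomere attachment held 116 tested genes, of which limma called 0 in either direction with 7 libraries and with 6. At an unadjusted p under 0.05, 25 were higher and 0 lower with 7 libraries, and 34 and 3 with 6. Their median change was 0.44, against -0.15 over all genes. In leptotene library 1, 77 of the 116 (66.4%) lay above all 3 spermatogonia libraries, as did 29.6% of all genes. The same count was 75 (64.7%) in library 4 against 25.8% of all genes, 72 (62.1%) in library 3 against 23.4%, and 48 (41.4%) in library 2 against 32.5%. Below all 3 spermatogonia libraries lay 22, 39, 13 and 23 of the 116 in leptotene libraries 1 to 4 (19.0%, 33.6%, 11.2% and 19.8%), against 45.8%, 49.5%, 42.4% and 48.7% of all genes. Libraries 1 and 4 were both above spermatogonia for 68 genes (58.6%), against 21.7% of all genes, and all 4 leptotene libraries were for 28, against 5.44% of all genes. Summed FPKM of the 119 genes of these lists in the table was 758, 736 and 965 in spermatogonia, 1790, 1110, 1150 and 1930 in leptotene libraries 1 to 4, and 1470 in preleptotene. By these unscaled sums alone, libraries 2 and 3 were closer to spermatogonia than libraries 1 and 4 were, and both lay above it. Summed FPKM of all rows also differed between libraries, at 324227, 359118 and 344417 in spermatogonia. It was 424944, 319197, 442376 and 350459 in leptotene libraries 1 to 4. The higher meiotic sum of library 3 thus came with the largest sum of all rows, and its place above spermatogonia is not shown as a share. The pachytene libraries summed to 1030 to 1250, a range that held library 2. Over all genes, library 2 had the lowest rho with spermatogonia of the leptotene libraries, 0.362 to 0.518.

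**Figure D2:**
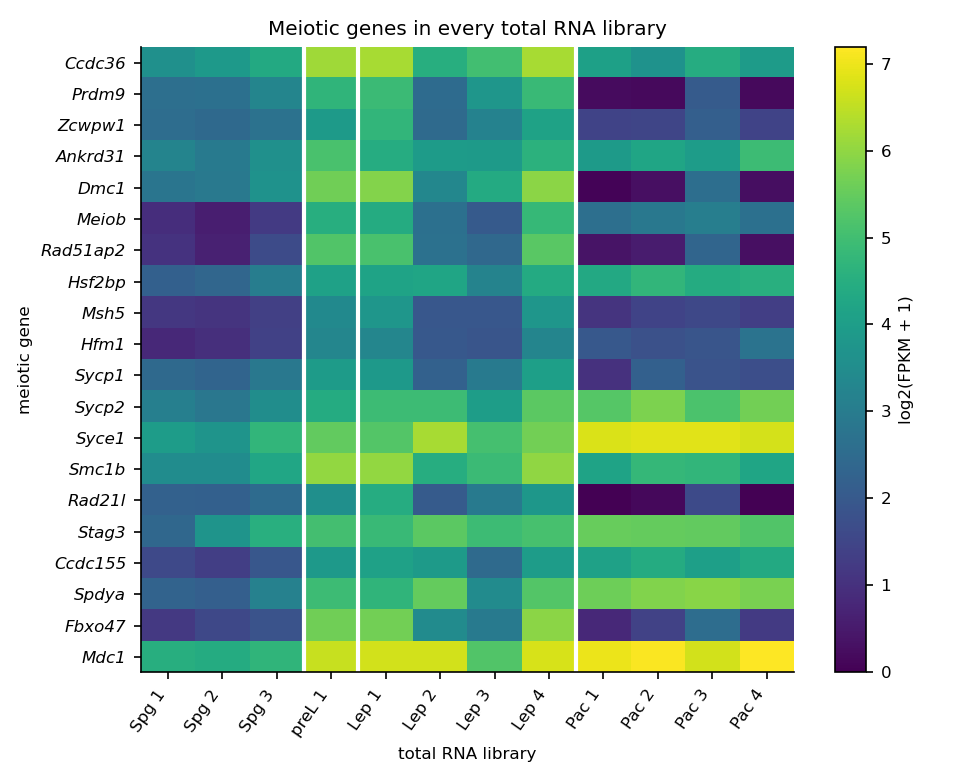
Level of 20 meiotic genes, as log2(FPKM + 1) by colour, in each of the 12 total RNA libraries (Spg, spermatogonia; preL, preleptotene; Lep, leptotene; Pac, pachytene). The genes were picked with their values known, and members that were flat or lower, such as Hormad1 and Rec8, are not shown. Of the 116 tested genes of 6 meiotic lists, 22 lay below all spermatogonia libraries in leptotene 1 and 23 in leptotene 4. For the genes shown, columns for leptotene 1, leptotene 4 and preleptotene are mostly alike and above spermatogonia, as for Dmc1 at 57.4, 60.3 and 48.5 FPKM. Leptotene 2 shares its low Dmc1 (9.04 FPKM) with the pachytene columns.

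Among the genes of double-strand break formation, 15 of 17 lay above all spermatogonia libraries in both leptotene 1 and leptotene 4, and limma called 0 with 7 libraries and with 6 (3 and 6 higher, 0 lower at an unadjusted p under 0.05). Ccdc36, also known as Iho1, which recruits the cutting machinery to axes, measured 11.1, 13.5 and 19.7 FPKM in spermatogonia and 74.4, 21.6, 31.2 and 74.6 FPKM in leptotene, a change of 1.49 ± 0.47 (adjusted p = 0.114). Prdm9, the histone methyltransferase that places the hotspots of recombination, measured 5.13, 5.28 and 8.58 FPKM against 29.0, 4.72, 12.6 and 28.3 FPKM, a change of 1.17 ± 0.47 (adjusted p = 0.206). Zcwpw1, a reader of the marks made by PRDM9, measured 4.98, 4.47 and 5.59 FPKM against 25.8, 4.56, 8.16 and 16.7 FPKM. Ccdc36 did not overlap between the stages, while Prdm9 and Zcwpw1 did so only through leptotene library 2. Ankrd31, a further partner of the cutting machinery, measured 6.84 to 11.1 FPKM in spermatogonia and 14 to 23.8 FPKM in leptotene. Gm960, also known as Top6bl, the partner of SPO11 in its catalytic core, measured 0.695 to 1.38 FPKM against 1.51 to 11.7 FPKM and passed with the animal block (1.86 ± 0.47, adjusted p = 0.0259). Spo11 itself stayed low, at 1.11 to 1.75 FPKM in spermatogonia and 6.59, 2.89, 1.33 and 2.04 FPKM in leptotene, with overlap between the stages (0.47 ± 0.41, adjusted p = 0.566). Rec114 and Mei4, which bind each other to prepare the cut, changed by -0.35 ± 0.48 and 0.36 ± 0.34. With leptotene libraries 2 and 3 both left out, 6 of the 17 genes passed (1028 of 16128 genes, 6.37%, rose in that fit and 2384, 14.8%, fell), among them Ccdc36, Prdm9, Zcwpw1, Ankrd31 and Gm960.

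The strand exchange genes held the largest changes of the meiotic lists after Fbxo47. Meiob, whose product binds single-stranded DNA with RPA, measured 0.936, 0.517 and 1.32 FPKM in spermatogonia and 20.5, 5.31, 3.08 and 27.3 FPKM in leptotene. Rad51ap2, listed here among the strand exchange genes, measured 1.07, 0.593 and 2.12 FPKM against 33.7, 5.40, 4.40 and 39.4 FPKM. In both genes every leptotene library was above every spermatogonia library, and libraries 2 and 3 had less than libraries 1 and 4. The changes, 2.47 ± 0.72 and 2.64 ± 0.76, missed the threshold in limma with 7 libraries (adjusted p = 0.0867 and 0.0831) and passed with the animal block (3.19 ± 0.48 and 3.36 ± 0.54, adjusted p = 0.00246 and 0.00329). Hsf2bp, which acts with BRCA2 in loading recombinases, measured 3.64 to 7.22 FPKM against 8.31 to 20.0 FPKM and also passed with the block (1.63 ± 0.47, adjusted p = 0.0451). Of 29 genes tested in the list, 0 passed without the block (5 higher and 0 lower at an unadjusted p under 0.05) and 4 rose with it, against 2.33% of all genes. Brca1, needed for repair by recombination, measured 9.41 to 11.0 FPKM in spermatogonia and 22.9, 4.25, 14.8 and 22.5 FPKM in leptotene, and Mcmdc2, an MCM-like meiotic gene, stayed at or under 2.23 FPKM in the 7 libraries. With libraries 2 and 3 left out, 6 of the 29 rose, against 6.37% of all genes.

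Crossover factors act on recombination intermediates in later prophase. Of 17 tested, 8 (47.1%) lay above all spermatogonia libraries in both leptotene 1 and leptotene 4, against 21.7% of all genes, while 3 lay below them in library 1 and 5 in library 4. Msh5, a subunit of the MutS gamma clamp, measured 1.23, 1.10 and 1.55 FPKM in spermatogonia and 12.7, 2.90, 2.90 and 12.6 FPKM in leptotene. Hfm1, a helicase needed for crossovers, measured 0.781, 0.959 and 1.64 FPKM against 8.79, 2.95, 2.70 and 8.57 FPKM. Neither gene overlapped between the stages, and in both the preleptotene library (9.59 and 8.76 FPKM) was near leptotene 1 and 4. Their changes of 1.63 ± 0.52 and 1.44 ± 0.45 missed the threshold in limma (adjusted p = 0.114 and 0.111) and passed with the animal block (adjusted p = 0.0101 and 0.0178), as did Nek1, a kinase gene (1.64 ± 0.45, adjusted p = 0.0356). Msh4, the partner of MSH5, was lower, at 0.429 to 0.612 FPKM in spermatogonia and 1.73, 0.595, 1.01 and 1.73 FPKM in leptotene. Rnf212, a ligase that marks future crossovers, measured 0.620 to 1.51 FPKM against 4.42, 1.08, 1.42 and 3.37 FPKM. In limma 0 of the 17 passed with 7 libraries (3 higher and 0 lower at an unadjusted p under 0.05), and with leptotene libraries 2 and 3 left out 5 rose and 1 fell, against 6.37% and 14.8% of all genes.

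The synaptonemal complex and axis list had the highest median of the 6 meiotic lists, 0.98 over 17 genes, with 15 genes higher and 0 called in limma (9 higher and 0 lower at an unadjusted p under 0.05). Sycp2, an axis protein, measured 7.54, 6.23 and 10.6 FPKM in spermatogonia and 29.2, 29.3, 15.1 and 40.4 FPKM in leptotene, without overlap. Its change was 1.51 ± 0.48 (adjusted p = 0.113) with 7 libraries and 1.89 ± 0.51 (adjusted p = 0.0332) with the animal block. Sycp3, the partner of SYCP2, measured 8.56, 5.80 and 4.21 FPKM against 12, 26.6, 20.5 and 11.4 FPKM, so that here libraries 2 and 3 were the highest (1.41 ± 0.41, adjusted p = 0.0853). Sycp1, the transverse filament that joins homologs, measured 3.98 to 6.40 FPKM against 13.6, 3.73, 6.64 and 15.7 FPKM, and overlapped through library 2. Of the central element genes, Syce1 measured 12.3 to 25.6 FPKM against 37.6, 74.8, 32.3 and 49.3 FPKM, and Syce3 4.54 to 6.04 FPKM against 25.5, 15.8, 10.5 and 19 FPKM. Syce3 passed with the block (1.65 ± 0.46, adjusted p = 0.0374), while its preleptotene level, 0.01 FPKM, lay far below both stages. Tex12, also of the central element, measured 1.07 to 8.78 FPKM against 24.0, 5.05, 11.6 and 23.9 FPKM. Hormad1, the axis protein that monitors synapsis, did not differ beyond its spread (-0.04 ± 0.62, adjusted p = 0.98), with 1.24 FPKM in leptotene library 4 and 8.49 and 8.98 FPKM in libraries 1 and 3.

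Meiotic cohesin subunits did not move as one. Smc1b, the meiotic form of SMC1, measured 10.2, 10.3 and 18.0 FPKM in spermatogonia and 63.8, 21.4, 28.9 and 62.4 FPKM in leptotene, without overlap (1.51 ± 0.46, limma adjusted p = 0.0994). Rad21l, a meiotic kleisin, measured 3.61 to 4.70 FPKM against 20.8, 3.22, 6.72 and 13.0 FPKM, and Stag3 measured 4.28, 12.1 and 22.4 FPKM against 28.3 to 40.4 FPKM. Rec8, the other meiotic kleisin, went the opposite way in 3 libraries. It measured 2.91, 2.30 and 4.66 FPKM in spermatogonia and 0.393, 0.242 and 0.465 FPKM in leptotene libraries 1, 2 and 4, and 4.62 FPKM in library 3. Its change of -1.03 ± 0.62 (adjusted p = 0.407) missed the threshold with 7 libraries, and with the animal block it fell by 1.70 ± 0.38 (adjusted p = 0.0157). Wapl, which releases cohesin from chromosomes, measured 22.0, 22.3 and 16 FPKM in leptotene libraries 1, 2 and 4 against 3.91 to 5.00 FPKM in spermatogonia, and 2.60 FPKM in leptotene library 3. Esco2, which acetylates cohesin in S phase, measured 11.1 to 17.0 FPKM in spermatogonia and 40.8, 5.11, 27.7 and 43.5 FPKM in leptotene. Of 21 genes tested, limma called 0 (5 higher and 0 lower at an unadjusted p under 0.05).

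Of the genes that tie telomeres to the nuclear envelope or cap them, 0 of 19 passed in limma with 7 libraries or with 6 (3 higher and 0 lower, and 3 higher and 3 lower, at an unadjusted p under 0.05), and leptotene library 1 was above library 3 in 8 of the 19. The list was split, with 10 of the 19 higher with 7 libraries. In leptotene 1 and in leptotene 4, 8 lay above all spermatogonia libraries, against 29.6% and 25.8% of all genes. In each of these libraries 7 lay below them, against 45.8% and 48.7% of all genes. The 3 members described next are all among the higher ones. Ccdc155, also known as Kash5, which links telomeres to dynein, measured 1.98, 1.53 and 2.90 FPKM in spermatogonia and 16.4, 14.2, 4.62 and 14.7 FPKM in leptotene. Spdya, an activator of CDK2 at telomeres, measured 3.84, 3.5 and 8.00 FPKM against 25.1, 44.2, 10.1 and 37.5 FPKM. Terb1, a telomere adaptor, measured 0.815, 0.894 and 2.52 FPKM against 8.21, 6.31, 3.48 and 7.58 FPKM. In all 3 genes the stages did not overlap, and leptotene library 3 was the lowest of its stage. Each missed the threshold in limma with 7 libraries (adjusted p = 0.0886, 0.111 and 0.112) and passed with the animal block (adjusted p = 0.00634, 0.00928 and 0.0221). Mdc1, which spreads the damage signal on the sex chromosomes, measured 21.9, 20.6 and 25.1 FPKM in spermatogonia and 102, 103, 36.7 and 108 FPKM in leptotene (2.14 ± 0.54 with the block, adjusted p = 0.0257). Mybl1, the transcription factor A-MYB of pachytene, measured 2.90, 2.87 and 5.05 FPKM against 19, 26.9, 5.44 and 24.5 FPKM and also passed with the block (2.34 ± 0.46, adjusted p = 0.0083).

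Of the genes of retinoic acid and meiotic entry, 1 of 20 passed the test and fell, a share near the 6.89% of all genes. Stra8, the retinoic acid target at the head of the entry programme, measured 21.6, 25.7 and 12.5 FPKM in spermatogonia and 31.3, 4.56, 27.3 and 21.4 FPKM in leptotene, with overlap (0.16 ± 0.46, limma adjusted p = 0.877). Gm4969, also known as Meiosin, measured 8.76, 10.2 and 14.0 FPKM against 25.5, 3.82, 20.7 and 21.7 FPKM (0.50 ± 0.44, adjusted p = 0.568). In both genes leptotene library 2 was below every spermatogonia library, and the pachytene libraries were lower still, at 0 to 1.88 FPKM for Stra8 and 0.117 to 2.71 FPKM for Gm4969. Ythdc2 and Meioc, whose products act together to clear mitotic transcripts, changed by 1.16 ± 0.41 (adjusted p = 0.154) and 0.67 ± 0.51 (adjusted p = 0.502). Aldh1a1, an enzyme of retinoic acid synthesis also held in the list of Leydig markers, measured 91.1, 137 and 33.1 FPKM in spermatogonia and 0.728, 0.422, 3.26 and 1.51 FPKM in leptotene, and fell by 4.60 ± 0.61 (adjusted p = 0.0121). Cyp26b1, which degrades retinoic acid, measured 17.3, 19 and 69.5 FPKM against 4.07, 1.5, 11.8 and 5.30 FPKM, a change of -2.48 ± 0.68 that missed the threshold (adjusted p = 0.0723) and passed with the block (adjusted p = 0.011). The median change of the 20 genes was -0.05, and 0.25 when the median gene was set level.

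Of 20 genes of undifferentiated spermatogonia, 4 fell, 0 rose and 16 did not pass the test, with a median change of -0.86, where 6.89% of all genes fell. Ret, the signalling partner of GFRA1, measured 10.8, 8.45 and 6.55 FPKM in spermatogonia and 1.92, 0.400, 2.15 and 1.45 FPKM in leptotene, and fell by 1.84 ± 0.36 (limma adjusted p = 0.0236). Etv5, a transcription factor induced by GDNF, fell by 1.81 ± 0.36 (adjusted p = 0.0243) and Spry4, a feedback inhibitor of receptor kinases, by 1.46 ± 0.34 (adjusted p = 0.0426). Of Gfra1, Ret, Etv5 and Spry4, Gfra1 alone passed when the median gene was set level (adjusted p = 0.0491, against 0.0603, 0.0615 and 0.101). Id4, a marker of stem cells, measured 4.88, 4.91 and 4.02 FPKM in spermatogonia, 1.12, 1.82 and 1.33 FPKM in leptotene libraries 1, 3 and 4 and 23.7 FPKM in library 2, beside 27.1 to 44.6 FPKM in the pachytene libraries. Without library 2 Id4 fell by 1.18 ± 0.25 (adjusted p = 0.0409), and with it the change was -0.59 ± 0.51 (adjusted p = 0.564). Zbtb16, also known as Plzf, measured 46.3, 60.0 and 21.5 FPKM against 11.7, 5.64, 17.2 and 11.3 FPKM and missed the threshold (adjusted p = 0.139).

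Of 19 genes of differentiating spermatogonia, limma called 0 (1 higher and 3 lower at an unadjusted p under 0.05). Kit, the receptor of differentiating cells, measured 11.5, 2.49 and 15.4 FPKM in spermatogonia and 1.82, 2.24, 3.45 and 11.4 FPKM in leptotene, with overlap. Dmrt1, which holds germ cells back from meiosis, measured 43.5 to 53.6 FPKM against 28.1, 8.74, 60.7 and 29.5 FPKM. Taf4b, a germ cell TFIID subunit, measured 20.5 to 28.9 FPKM against 74.1, 11.7, 38.5 and 72.0 FPKM (0.81 ± 0.46, adjusted p = 0.376). Dazl, a germ cell RNA-binding protein that promotes translation, measured 5.97, 6.62 and 8.42 FPKM in spermatogonia, 259, 45.0 and 294 FPKM in leptotene libraries 1, 2 and 4, 1.80 FPKM in leptotene library 3 and 2.30 FPKM in preleptotene. The change was 2.44 ± 1.65 (adjusted p = 0.455) with 7 libraries and 4.44 ± 0.57 (adjusted p = 0.00112) with the animal block, which leaves library 3 out of the difference.

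Of 41 genes of the mitotic cycle, 1 rose (Cdkn3) and 0 fell, against 0.149% and 6.89% of all genes, with a median change of 0.41 and 33 genes higher, where 6840 of 16774 genes were higher overall. Top2a, which untangles chromosomes, measured 7.93, 12.1 and 13.6 FPKM in spermatogonia and 44.3, 17.4, 28.1 and 48.4 FPKM in leptotene. It missed the threshold with 7 libraries (1.46 ± 0.41, limma adjusted p = 0.0744) and rose without library 2 (1.68 ± 0.33, adjusted p = 0.0311). Mki67, the proliferation marker, measured 12, 16.1 and 31.0 FPKM against 75.7, 20.5, 49.1 and 75.7 FPKM, Cenpf, a kinetochore gene, 10.3 to 16.9 FPKM against 24.9 to 55.9 FPKM, and Bub1, a spindle checkpoint kinase, 2.96 to 4.73 FPKM against 6.92 to 17.5 FPKM. Cenpf and Bub1 did not overlap between the stages. Of 39 DNA replication genes, 0 passed in limma with 7 libraries (1 higher and 0 lower at an unadjusted p under 0.05), with a median of 0.02. Gins1, a subunit of the replicative helicase, rose without library 2 (1.36 ± 0.26, adjusted p = 0.0311), and Pcna, the sliding clamp, changed by 0.55 ± 0.35 (adjusted p = 0.435). Of 65 replication-dependent histone genes, 0 were called with 7 libraries, and 4 rose and 1 fell without library 2, against 0.348% and 8.17% of all genes.

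**Figure D3:**
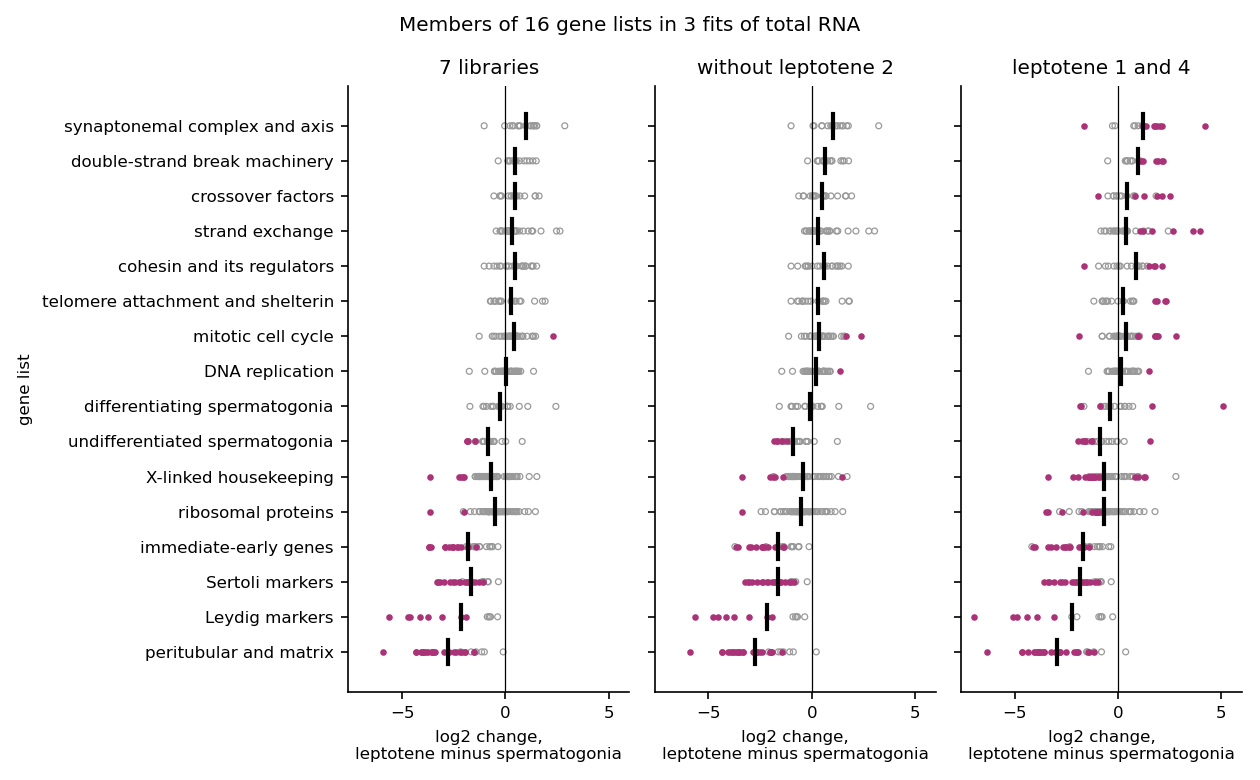
Change of each tested member of 16 gene lists (log2(FPKM + 1), leptotene minus spermatogonia) in the fit of 7 libraries, without leptotene 2, and with leptotene 1 and 4 alone. Filled points passed an adjusted p under 0.05, open points did not, and bars are list medians, which run from 0.98 for the synaptonemal complex and axis to -2.80 for the peritubular and matrix list with 7 libraries.

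X-linked genes of general function were lower in leptotene library 2 than in the other 3. Of 50 tested genes, 5 (against 6.89% of all genes) fell and 0 rose, with a median change of -0.69. With the animal block 16 fell, against 10.3% of all genes. When the median gene was set level 1 fell, against 476 of all 16774 genes. Rps4x, an X-linked ribosomal protein gene, measured 41.4, 61.1 and 19 FPKM in spermatogonia, 2.22, 2.26 and 1.85 FPKM in leptotene libraries 1, 3 and 4, and was listed at 0 in library 2. It fell by 3.66 ± 0.49 (limma adjusted p = 0.0121), and by 3.38 ± 0.41 without library 2 (adjusted p = 0.0146). Rps4x has processed copies in the genome, so its level depends on how reads shared with them were assigned. Slc25a5, a carrier of ADP and ATP, fell by 2.24 ± 0.50 (adjusted p = 0.0366), Msn, which ties actin to the membrane, by 2.02 ± 0.39 (adjusted p = 0.0231) and Tbl1x, a corepressor subunit, by 2.05 ± 0.39 (adjusted p = 0.0224). Nono, an RNA-binding protein of paraspeckles, fell by 2.14 ± 0.49 (adjusted p = 0.039), and missed the threshold without library 2 (adjusted p = 0.0644). Hprt, a purine salvage enzyme, measured 16.6 to 20.5 FPKM in spermatogonia, 37.8, 28.6 and 40.8 FPKM in leptotene libraries 1, 3 and 4 and 4.35 FPKM in library 2. Bcap31, a protein of the endoplasmic reticulum, rose without library 2 (1.46 ± 0.32, adjusted p = 0.0434). Summed FPKM of the 51 genes was 408 to 518 in spermatogonia, 319 to 366 in leptotene libraries 1, 3 and 4 and 71.2 in library 2.

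Genes of the pachytene programme were high in library 2 and in no other leptotene library. Summed FPKM of 40 pachytene genes was 224 to 443 in spermatogonia, 535, 389 and 561 in leptotene libraries 1, 3 and 4, and 5110 in library 2. In library 2, 33 of the 38 tested lay above all spermatogonia libraries (86.8%, against 32.5% of all genes), and 6 to 8 did so in each of the others. Piwil1, the PIWI protein of pachytene, measured 94.3 FPKM in library 2 and 1.60 to 5.08 FPKM in the other leptotene libraries, and Pgk2, the testis glycolytic enzyme, 90.4 FPKM against 1.09 to 3.54 FPKM. Hspa2, the meiotic HSP70, measured 1010 FPKM against 46.1 to 72.1 FPKM. The median change of the list was 0.56 with 7 libraries and -0.13 without library 2. Limma called 0 of these genes in both fits (2 higher and 0 lower, and 3 higher and 2 lower, at an unadjusted p under 0.05).

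**Figure D4:**
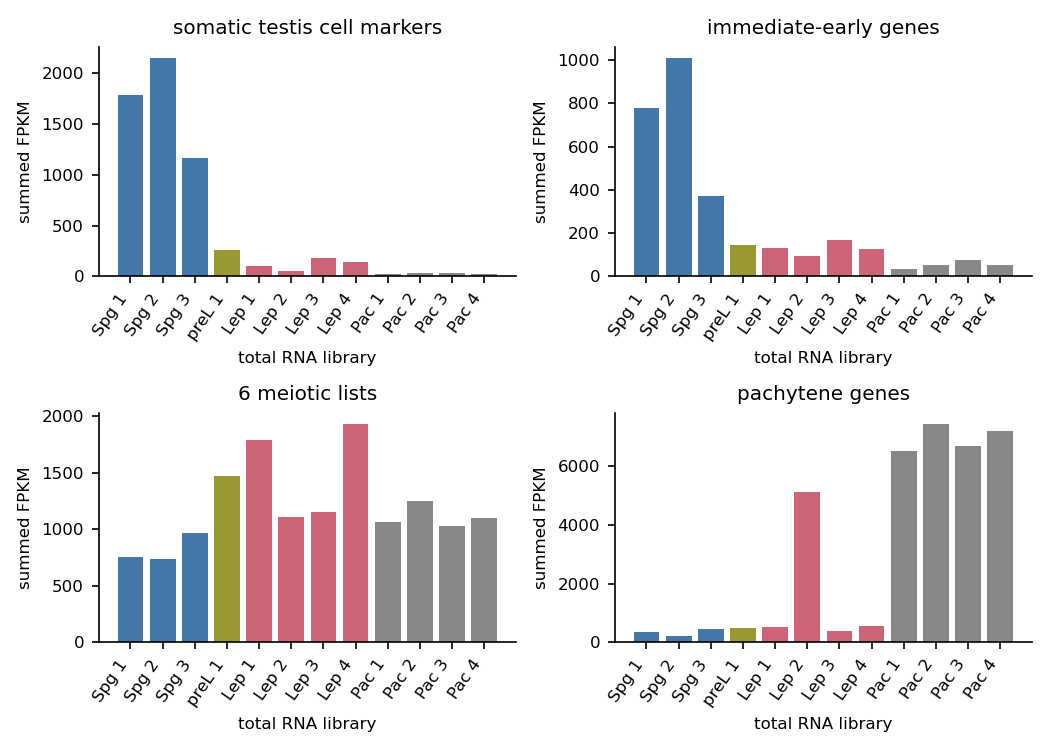
Summed FPKM of 4 groups of genes in each of the 12 total RNA libraries: 107 somatic testis cell markers, 29 immediate-early genes, 119 genes of 6 meiotic lists, and 40 pachytene genes. Somatic markers and immediate-early genes are highest in the 3 spermatogonia libraries, and leptotene 2, at 5110, stands apart from the other leptotene libraries in the pachytene panel.

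Immediate-early genes, which cells switch on within minutes of a stimulus, were among the genes that fell. Of 28 tested, 14 fell and 0 rose, with a median change of -1.79, and 21 were below all spermatogonia libraries in all 4 leptotene libraries, against 3873 of all 16774 genes (23.1%). When the median gene was set level, 7 of the 28 fell, against 476 of all 16774 genes. Junb, a subunit of the AP-1 factor, measured 76.8, 92.7 and 40.2 FPKM in spermatogonia and 2.20, 1.67, 8.43 and 3.11 FPKM in leptotene, and fell by 3.61 ± 0.57 (limma adjusted p = 0.0163). Cyr61, a secreted matrix protein, measured 38.3, 58.8 and 19 FPKM against 0.477, 0.340, 3.73 and 1.15 FPKM and fell by 3.68 ± 0.59 (adjusted p = 0.0168). Neither gene overlapped between the stages, and spermatogonia library 3 and leptotene library 3 were the nearest to each other. Ctgf, a matrix protein of the same family as CYR61, fell by 3.68 ± 0.83 (adjusted p = 0.0382) with 10.5 FPKM in spermatogonia library 3 and 82.5 and 99.5 FPKM in libraries 1 and 2, and missed the threshold without leptotene library 2 (adjusted p = 0.0574). Jun, Egr1, Ier2 and Ier3 fell by 2.73 ± 0.51, 2.59 ± 0.52, 2.93 ± 0.51 and 2.92 ± 0.43 (adjusted p = 0.0214, 0.0257, 0.0191 and 0.0148). Myc fell by 1.79 ± 0.32 (adjusted p = 0.0198). Fos, the partner of JUN, was an exception, at 9.0, 43.0 and 3.41 FPKM in spermatogonia and 6.5, 1.86, 11.0 and 6.58 FPKM in leptotene (-0.36 ± 0.68, adjusted p = 0.808). Of 21 heat shock genes, 3 fell (against 6.89% of all genes) and 0 rose, namely Hspa1b, Hspa1a and Hspb1 (by 2.44 ± 0.55, 2.38 ± 0.56 and 2.37 ± 0.36, adjusted p = 0.0378, 0.0436 and 0.0154), and the list's median was 0.05. Hspa1a missed the threshold without library 2 (adjusted p = 0.052). Hspb1 alone of the 3 passed when the median gene was set level (adjusted p = 0.0336, against 0.0777 for Hspa1b and 0.0878 for Hspa1a) and with leptotene libraries 1 and 4 alone (adjusted p = 0.024, against 0.0541 and 0.0551).

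Markers of somatic testis cells held 9 of the 12 largest falls. These falls under the naming rule with 7 libraries were Acta2, Insl3, Hsd3b1, Aldh1a1, Col4a4, Eln, Acsbg1, Cyp17a1, Fgl2, Prss35, Col6a1 and Col4a3, and the same 12 genes were named without library 2. Acta2, the smooth muscle actin of peritubular cells, measured 138, 218 and 79.4 FPKM in spermatogonia and 0.336, 0.182, 2.57 and 0.599 FPKM in leptotene, and fell by 5.94 ± 0.55 (limma adjusted p = 0.0121). Insl3, a hormone of Leydig cells, measured 286, 76.5 and 103 FPKM in spermatogonia, was listed at 0 in leptotene libraries 1, 2 and 4 and measured 15.0 FPKM in library 3, and fell by 5.63 ± 1.11 (adjusted p = 0.0241). Hsd3b1 and Cyp17a1, steroid enzymes of Leydig cells, fell by 4.72 ± 0.50 and 4.15 ± 0.41 (both adjusted p = 0.0121). The collagens Col4a4, Col6a1 and Col4a3 fell by 4.35 ± 0.45, 4.08 ± 0.49 and 4.04 ± 0.38, and elastin, Eln, by 4.35 ± 0.46. Acsbg1, an acyl-CoA synthetase gene, fell by 4.25 ± 0.54, Fgl2, a fibrinogen-like gene, by 4.13 ± 0.62 and Prss35, a protease-like gene, by 4.11 ± 0.55.

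By cell type, 26 of 32 peritubular and matrix genes fell (median -2.80), with Col1a1 at 43.4 to 77.0 FPKM in spermatogonia and 0.555 to 4.06 FPKM in leptotene. Of 27 Sertoli markers, 19 fell (median -1.68). Clu, abundant in Sertoli cells, measured 61.4, 50.2 and 35.2 FPKM in spermatogonia and 2.56, 1.54, 5.47 and 4.11 FPKM in leptotene (fell by 3.29 ± 0.44, limma adjusted p = 0.0121), and Sox9, Gata4 and Amh fell by 1.98 ± 0.32, 2.25 ± 0.36 and 1.65 ± 0.31 (adjusted p = 0.0171, 0.0164 and 0.0221). Of 13 Leydig markers, 8 fell (median -2.17). Of 13 macrophage and blood markers, 10 fell (median -1.45), among them Lyz2, lysozyme, by 3.43 ± 0.40 and C1qa, a complement gene, by 2.36 ± 0.38. Of 4 endothelial markers tested, 2 fell, Cdh5 by 1.49 ± 0.30 and Eng by 1.86 ± 0.31. When the median gene was set level, 476 of all 16774 genes fell. In that fit 23 of 32 peritubular and matrix, 11 of 27 Sertoli and 6 of 13 Leydig markers fell. So did 6 of 13 macrophage and blood markers and 1 of 4 endothelial markers. Together 65 of 89 tested somatic markers fell, against 6.89% of all genes, and 0 rose. All 4 leptotene libraries were below all spermatogonia libraries for 79 of the 89, against 23.1% of all genes. Summed FPKM of the 107 somatic markers in the table was 1790, 2150 and 1170 in spermatogonia, or 0.576%, 0.636% and 0.351% of all FPKM, and 105, 52.8, 186 and 141 in leptotene, or 0.018% to 0.044%. Of the 107, 2 or 3 were listed at 0 in each spermatogonia library and 21, 31, 8 and 11 in leptotene libraries 1 to 4. The sums of immediate-early genes were 780, 1010 and 370 in spermatogonia and 96.7 to 170 in leptotene. The part of somatic RNA in the falls of Aldh1a1, the immediate-early and heat shock genes and the stem cell genes was not tested.

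In the lists of RNA polymerase II transcription (56 genes), mRNA decay (48), mRNA binding and stability (49), splicing regulators (51), F-box and SCF genes (31) and chromatin writers and erasers (45), the medians were 0.05, 0.05, 0.09, 0.17, -0.05 and 0.15. Limma called 0, 1, 1, 3, 1 and 1 of these genes in either direction, Tex19.1 being the 1 in mRNA binding, where 0.149% of all genes rose and 6.89% fell. In the first list 1 was higher and 1 lower at an unadjusted p under 0.05. Zfp36, tristetraprolin, which targets short-lived mRNAs for decay, measured 23.2, 29.4 and 8.99 FPKM in spermatogonia and 1.31, 0.529, 3.20 and 1.98 FPKM in leptotene, and fell by 2.52 ± 0.53 (adjusted p = 0.0294). Among splicing regulators Ptbp1 rose, and Mbnl1 and Mbnl2, muscleblind proteins, fell by 1.65 ± 0.32 and 2.30 ± 0.46 (adjusted p = 0.0234 and 0.0244). Tet1, which oxidises methylcytosine, fell by 1.16 ± 0.27 (adjusted p = 0.0405) from 1.08 to 2.65 FPKM to 0.008 to 0.292 FPKM. When the median gene was set level, Zfp36, Mbnl1, Mbnl2 and Tet1 missed the threshold (adjusted p = 0.0618, 0.0625, 0.0554 and 0.11). Fbxo32, an F-box ligase subunit of muscle atrophy, fell by 2.71 ± 0.45 (adjusted p = 0.0171). Pum2, a repressor of translation, fell without library 2 (1.87 ± 0.40 lower, adjusted p = 0.0409) and missed the threshold with it (adjusted p = 0.0708). Of 82 ribosomal protein genes 2 fell and 0 rose, with a median of -0.49, and of 17 histone variant genes H1fx alone rose, while H2afx, the variant phosphorylated at DNA breaks, was high in both stages (339 to 408 FPKM and 227 to 985 FPKM).

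Nascent RNA, labelled in the animal and captured from 7 libraries of other animals (IND5, IND7 and IND8), gave a second reading of the same genes. In the same fit there, 57 of 13959 genes rose (0.408%) and 1176 fell (8.42%), and without nascent leptotene library 2 there were 76 (0.555%) and 1249 (9.12%). That nascent library is a different sample from total RNA library 2, and its likeness to pachytene is not given here. Of the 1156 genes that fell in total RNA, 952 were tested in nascent RNA, 947 were lower and 784 fell, which is 67.8% of the falls in total RNA and 66.7% of those in nascent RNA. Of the 25 that rose in total RNA, 23 were tested, 14 were higher and 2 rose, Cdkn3 by 2.13 ± 0.52 and H1fx by 5.14 ± 0.71 (limma adjusted p = 0.0329 and 0.00381). Those 2 are 8.0% of the rises in total RNA and 3.51% of those in nascent RNA. Rnf44, Ptpa, Ptbp1 and Cab39 rose in total RNA, and in nascent RNA their changes were 0.12 ± 0.45, -0.52 ± 0.64, -0.53 ± 0.40 and -0.42 ± 0.44 (adjusted p = 0.896, 0.652, 0.44 and 0.59). Of the 57 genes that rose in total RNA with 6 libraries, 56 were tested in the nascent fit of 6 libraries, where 42 were higher and 3 rose. Csrp1, one of the 57, changed by -1.85 ± 0.98 in nascent RNA with 7 libraries (limma adjusted p = 0.27). Fbxo47, Meiob and Rad51ap2, which missed the threshold in total RNA, rose in nascent RNA by 3.30 ± 0.72, 2.81 ± 0.67 and 2.95 ± 0.77 (adjusted p = 0.0206, 0.0294 and 0.043). They were chosen with these values known. Most meiotic genes did not pass in nascent RNA. There 2 of 28 strand exchange genes and 1 of 17 synaptonemal complex and axis genes rose. In the double-strand break, crossover, cohesin and telomere lists 0 of 17, 17, 21 and 19 rose, and 1 telomere gene fell. Of the markers, Gfra1 fell by 2.51 ± 0.43 in nascent RNA (adjusted p = 0.00786), and Dmc1 missed the threshold (1.72 ± 0.61, adjusted p = 0.121). Among the falls, Rps4x changed by -0.85 ± 0.51 in nascent RNA (adjusted p = 0.325) and Egr1 by -0.19 ± 0.54 (adjusted p = 0.863), against falls of 3.66 and 2.59 in total RNA, while Cyp26b1 fell by 4.76 ± 0.61 (adjusted p = 0.00294). The difference between the assays was not tested for these genes.

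**Figure D5:**
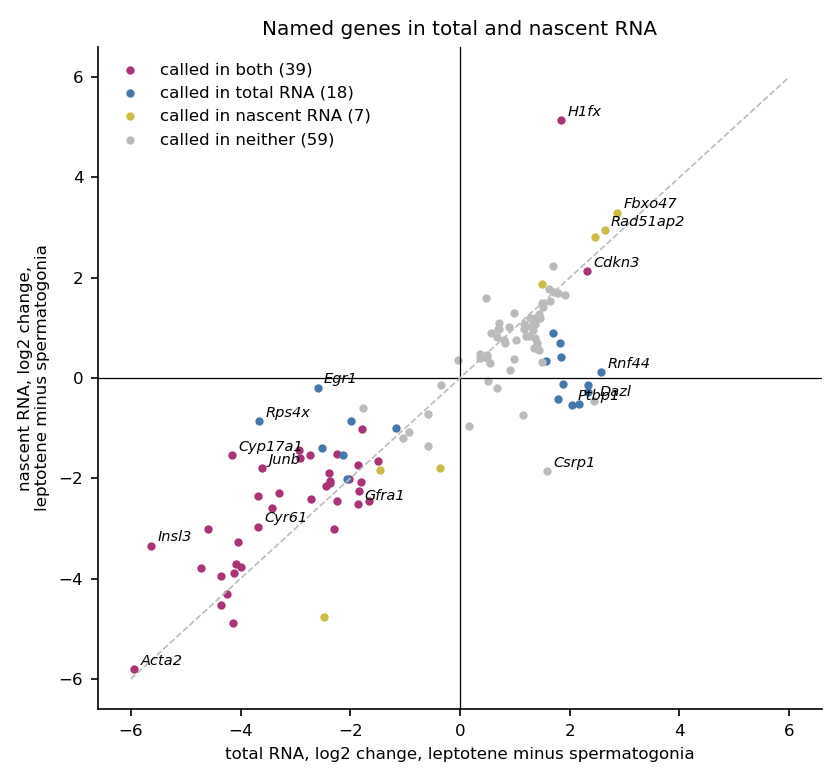
Change in nascent RNA against change in total RNA (both log2(FPKM + 1), leptotene minus spermatogonia, 7 libraries each) for 123 genes described in the text, coloured by the assay in which each passed, with the line of equal change dashed. The sign is shared by 110 of the 123, and Rnf44 and Ptbp1 lie near or below 0 in nascent RNA alone. These genes were picked with their values known, and the share over all genes was not computed. Most genes were lower in both assays, with 6840 of 16774 higher in total RNA and 5656 of 13959 in nascent RNA.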

How the data were processed

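Total RNA was read from a table of FPKM per gene deposited by the authors. The submitters' processing notes name STAR 2.5.2a, StringTie and mm10. No StringTie version, annotation or strand setting is given in the sources used here, so overlapping genes are uncertain, although the kit marks strand per the labels' protocols. Libraries were depleted of ribosomal RNA, and ERCC spike-ins were added to extracted RNA, which leaves RNA per cell unmeasured. The nascent FPKM table deposited by the authors was used uncorrected, and its version scaled by 5S RNA was not used.

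The 92 spike-in rows were dropped, 1.0 was added before log2, and genes entered a fit if 2 or more of its libraries had at least 1 FPKM. All 37 mitochondrial rows were at 0, so a listed 0 may be a missing estimate. The log2 values of libraries from 1 animal and 1 stage were averaged. Stages were compared by a two-sided test in limma 3.58.1 under R 4.3.3 (lmFit and eBayes with a trend; 3 residual degrees of freedom), calling genes under an adjusted p of 0.05 (Benjamini-Hochberg, all genes of the fit). The labels place animals IND1 and IND3 in both stages, which pairs the samples, and the paired fit took the animal as a block. Deviations from the stage means of the same animal correlated at 0.069 (IND1) and 0.007 (IND3). The fit was also run on simulated data with a smaller spread between animals than observed, which does not vouch for the calls here. Depth was read from the steps between low FPKM values: within 0.05 of whole fragments lay 41.9% to 46.8% of low values, too few to recover counts, so no count test was run. The values of 1 gene are not reported here.

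The rule for named genes took, in the fits of 7 and of 6 libraries, the 12 largest called rises and falls whose libraries did not overlap and whose higher stage averaged at least 5 FPKM, leaving out predicted genes, pseudogenes, small RNAs and merged rows. From the gene lists it took up to 4 called members, or the 2 of highest mean where fewer than 2 were called. Any other list member could also be described, and the choice among these, many meiotic genes included, followed no rule. The members, the 32 lists and these rules were chosen with earlier results of these data known. Of the list symbols 8 were not matched and 11 were matched by synonym. Coordinates are those of GENCODE M21 on mm10. Work in Python 3.11.15 used numpy 2.4.6, pandas 2.3.3 and matplotlib 3.10.9. The 18 alternatives tried cover other scalings, filters, pseudocounts, blocks and left-out libraries.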

Additional observations from a re-analysis of the deposited data

Results flagged for a closer look

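In 127 genes described here, the highest or lowest of the 4 leptotene libraries was checked for a gap to the nearest other library above Dixon's 95% critical value, which chance passes in about 1 in 20 groups. It did so in 12 genes, 6 times in leptotene library 2 and 6 times in library 3. In library 2, Dgcr6 (22.0 FPKM), Id4 (23.7) and Hspa2 (1010) were far above the other leptotene libraries, and Gm4969 (3.82) and Hprt (4.35) far below them, with Rps4x listed at 0. In library 3, Rec8 (4.62), Myc (0.292) and Insl3 (15.0) were far above, and Wapl (2.60), Ccdc155 (4.62) and Mdc1 (36.7) far below.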

How the results depend on the processing

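Of 16774 genes, 25 rose and 1156 fell, and these counts moved with the processing. A fixed replicate block for the animal, the pairing of IND1 and IND3, gave other counts: 390 rose and 1720 fell, of which 24 and 1078 were shared, and without leptotene library 2 the block gave 592 and 1551. With the animal as a random replicate block over libraries 77 rose and 2120 fell. Leptotene libraries 1 and 4 alone gave 1028 and 2384, and a spread shared by all 4 stages 67 and 1957. With a filter at 5 FPKM 7 of 7436 genes rose and 317 fell. Without a filter 0 of 35081 genes passed in limma in either direction (575 higher and 5195 lower at an unadjusted p under 0.05). Scaling to spike-ins gave 29 and 2087, to summed FPKM 15 and 1407, to the median gene 32 and 476, and a pseudocount of 0.1 gave 26 and 875. Leaving out 1 library at a time gave 0 to 186 rises and 0 to 1518 falls, with 0 in both directions without leptotene library 1 or 4, and 57 rises and 1338 falls without library 2. None of the genes named here that passed with 7 libraries changed sign under these alternatives. The cause of these moves was not tested, apart from fewer samples or more genes tested where an alternative is built so. With 2 and 3 animals and 7.15M to 13.25M implied fragments, a gene that missed the threshold is not shown to be equal.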
